A study of Mus musculus with 8 samples.

Results

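The cells described here are stomach gland cells whose barcode carried at least 1 transcript of Ccl20, a chemokine gene. Among 1388 barcodes with 100 or more unique molecular identifiers (UMIs, each standing for 1 captured transcript), 143 held 1 or more Ccl20 UMIs, which is 10.3% (8.75 to 12). Of these, 42 held 3 or more, which is 3.03% (2.19 to 4.07), and 101 held 1 or 2. The remaining 1245 barcodes held no Ccl20 UMI and served for comparison. The members were chosen by their Ccl20 UMIs, so the Ccl20 values below describe that choice and support nothing else. Intervals in parentheses are exact 95% intervals that cover counting error only.

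The labels name 8 samples, each a gland preparation of a mouse aged 23 weeks with the genotype Atp4bCre; Rosa26NICD; Arid1aflox/flox, without saying whether these were 1 or several mice. Atp4b is a proton pump gene of parietal cells, so Cre acts in that lineage, where it turns on the Notch intracellular domain (NICD) and removes the floxed part of the chromatin remodelling gene Arid1a. All cells share this genotype, and no control genotype was analysed here. Epithelial cells were sorted by high EPCAM and low Sytox staining and run on the droplet-based 10x platform. Barcodes carry no sample name, so the table is 1 pooled sample without replicates. Cells are not replicates, so no test between conditions was possible and no p-value is given.

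CCL20 is a small secreted protein that draws cells bearing the receptor CCR6, among them dendritic cells, B cells and some T helper cells, towards an epithelium. Epithelial cells are known to make it when NF-kappa B is activated by bacterial products or inflammatory cytokines, and the epithelium over gut lymphoid follicles makes it without such a stimulus. Of 14 microfold cell and follicle epithelium markers listed, Ccl20 was the only 1 with a row in the table, so no cell type name can be given to these barcodes. The table covers 779 complete gene rows, of which 711 match chromosome 1 of the GENCODE annotation. Epcam, Ccr6, the NF-kappa B genes and most stomach cell markers were not analysed here.

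Ccl20 lies on chromosome 1 at 83116766 to 83119167 on the plus strand (GRCm38). The 250 bases before its start are shown because NF-kappa B and Notch, the pathways named above, act through short motifs that can be searched in them. The RefSeq window chr1:83116516-83116765, plus strand, reads as follows, with motif matches in capitals:
Ccl20: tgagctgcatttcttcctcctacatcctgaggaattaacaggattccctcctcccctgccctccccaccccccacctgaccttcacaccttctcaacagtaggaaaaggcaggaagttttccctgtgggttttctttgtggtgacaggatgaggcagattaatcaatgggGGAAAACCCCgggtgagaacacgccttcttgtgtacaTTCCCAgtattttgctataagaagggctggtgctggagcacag

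Both strands were searched for the kappa B consensus and for TGGGAA, the core bound by the Notch partner RBPJ. The kappa B match spans the bases from -80 to -71, counted from the gene's start, and lies on the minus strand. The TGGGAA match, also on the minus strand, spans -43 to -38. The 2 matches do not overlap. Of 32851 windows of the same length in the RefSeq table, 7.25% held the kappa B consensus and 21.6% held TGGGAA. A match describes the letters only and does not show binding.

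Ccl20 transcripts were concentrated in few barcodes. The 1388 barcodes held 480 Ccl20 UMIs, a level of 1092 CPM (the gene's UMIs per 1000000 UMIs of the table; 996 to 1194). The highest barcode held 46 of them, and the next ones held 32, 24 and 19. Most members sat at the low end: 74 barcodes held exactly 1 Ccl20 UMI and 27 held 2, just outside the stricter set, while 8 held 3, just inside it. The 42 barcodes with 3 or more held 352 of the 480 UMIs, or 73.3%, and the 101 barcodes with 1 or 2 held 128. In the stricter set, Ccl20 made up between 0.538% and 12.1% of a barcode's UMIs, with a median of 1.62%. In all members the median was 0.552%. No Ccl20 UMI was found in the 72 barcodes with fewer than 100 UMIs, the largest of which held 99. Those barcodes held 5043 UMIs together, so a level of up to 595 CPM would have been missed.

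Few genes of like abundance were spread as unevenly. Among 103 genes with 247 to 960 UMIs, 10 barcodes held 41.3% of the UMIs of Ccl20, second to Alpi, an intestinal alkaline phosphatase gene, with 60.7%. Tm4sf20, which encodes a protein of the transmembrane 4 superfamily, came next with 24.9%. The median of the other genes was 7.44%. Of these, 1 gene (Alpi, 61 barcodes) was found in fewer barcodes than Ccl20, and the median was 349.5 barcodes. The variance of Ccl20 UMIs over barcodes was 12.3 times their mean, against a median of 1.15 for the other genes.

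**Figure D1:**
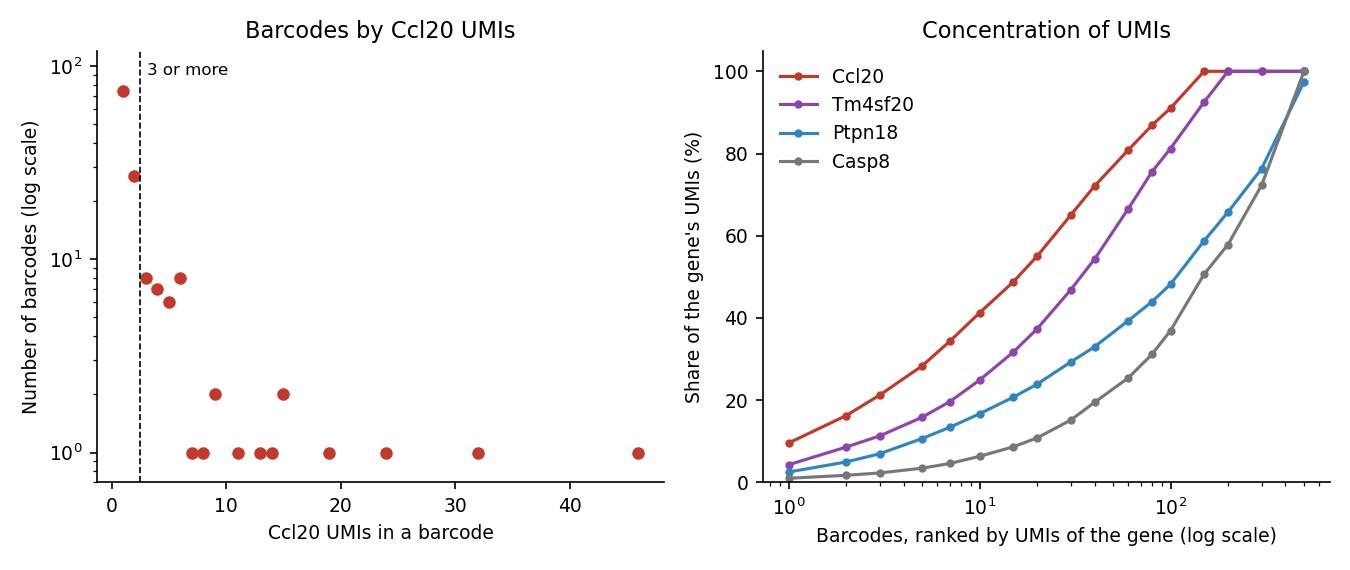
Left, number of barcodes (log scale) at each count of Ccl20 UMIs, for the 143 barcodes with at least 1; the dashed line separates the 42 barcodes with 3 or more. Right, share of a gene's UMIs (%) held by its highest barcodes (rank on a log scale) for Ccl20 and 3 other genes; the 10 highest barcodes hold 41.3% of the Ccl20 UMIs and 24.9% of the Tm4sf20 UMIs.

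The groups overlapped in depth, and the stricter set was somewhat deeper. The median total was 285 UMIs in barcodes without Ccl20, 277 in those with 1 or 2 Ccl20 UMIs and 332 in those with 3 or more. The stricter set spanned 159 to 743 UMIs, within the 100 to 1082 of the barcodes without Ccl20. A Ccl20 UMI was found in 7.27% (4.72 to 10.6) of 330 barcodes with 100 to 199 UMIs, in 12.5% (10.2 to 15.2) of 712 with 200 to 399 and in 8.67% (5.93 to 12.1) of 346 with 400 or more. For 3 or more Ccl20 UMIs the shares were 1.52% (0.494 to 3.50), 3.51% (2.29 to 5.14) and 3.47% (1.81 to 5.98), lowest in the shallowest barcodes, with intervals that overlap. The ribosomal protein genes Rpl37a, Rpl7 and Rpl31 together took 40.3% of UMIs in barcodes without Ccl20, 41.1% in those with 1 or 2 and 40.4% in those with 3 or more. All levels below leave Ccl20 out of the totals, so its own UMIs cannot lower the other genes. With each barcode thinned to 100 UMIs, 5.62% still held a Ccl20 UMI and 18 held 3 or more.

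Most other genes that could be ranked were at nearly the same level with and without Ccl20. Of 418 genes with a UMI in the kept barcodes, the rarer ones could not be ranked. A gene was ranked when its UMIs over both groups would put 10 or more in the Ccl20 group at an even level, and it was counted as different at a ratio of 2 or more, or 0.5 or less. For barcodes with 1 or more Ccl20 UMIs against none, 210 genes could be ranked, 195 of them lay within 1.5-fold, and the median ratio was 1.00. No gene was at least 2-fold higher (0% of 210), and 6 were at least 2-fold lower (2.86%). For barcodes with 3 or more against none, 137 genes could be ranked, with a median ratio of 0.986 and 121 within 1.5-fold. Here 1 gene was at least 2-fold higher (0.730%) and 2 were at least 2-fold lower (1.46%), or 2.19% in all. With 1 pooled sample there is no spread between replicates to set beside these counts.

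**Figure D2:**
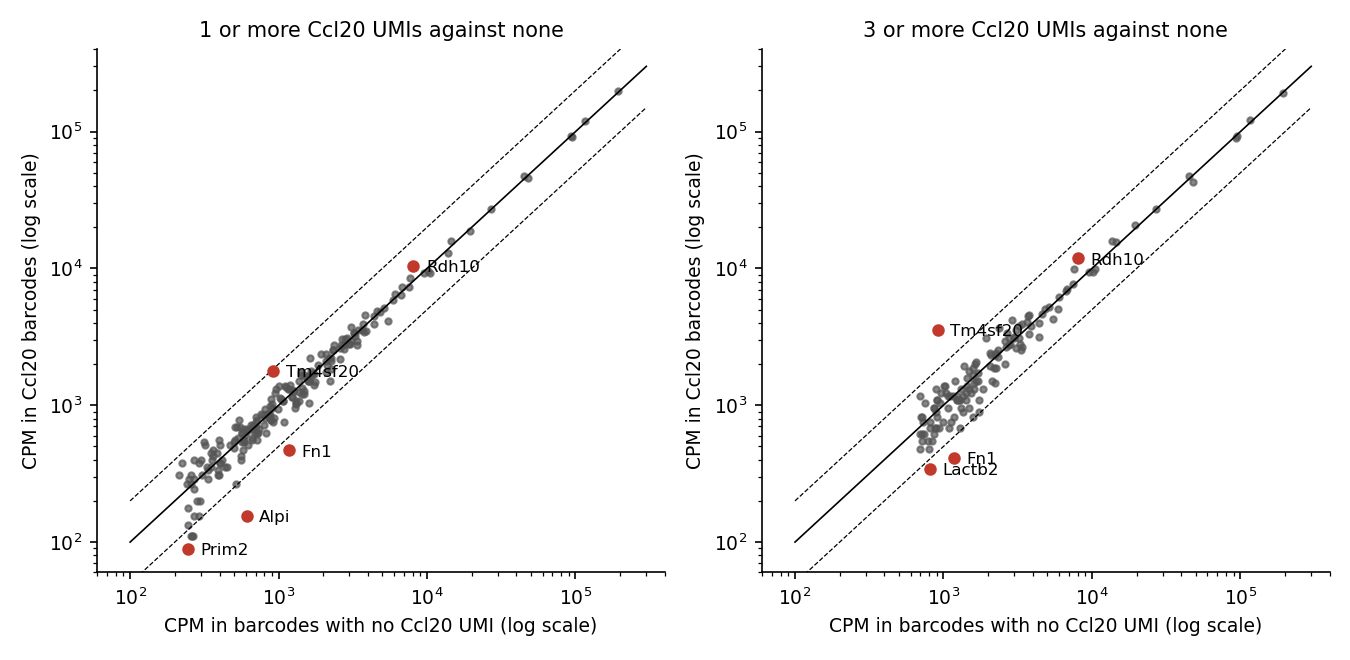
Level of each ranked gene in CPM (log scales) in barcodes without Ccl20 (x axis) and with 1 or more (left, 210 genes) or 3 or more Ccl20 UMIs (right, 137 genes); each point is a gene, the solid line marks equal levels and the dashed lines a 2-fold difference. Most points lie along the line, with Tm4sf20 above the upper dashed line on the right and Fn1 below the lower one in both.

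Tm4sf20 had the highest ratio in both comparisons. It reached 3576 CPM (2670 to 4689) in the 42 barcodes with 3 or more Ccl20 UMIs, from 52 UMIs, against 918 (826 to 1018) in barcodes without Ccl20, a ratio of 3.90 (2.85 to 5.22). In the 101 barcodes with 1 or 2 Ccl20 UMIs its level was 922 CPM (613 to 1333), nearly that of barcodes without Ccl20. The ratio in the stricter set leaned on few barcodes: the 13 barcodes that held it carried 19, 8, 5, 5, 3 and 3 UMIs, then 2 in 2 barcodes and 1 in each of 5. The 3 highest held 61.5% of these UMIs, and without them the ratio was 1.63. Over all 143 members the ratio was 1.94 (1.504 to 2.48), and 1.195 without the 3 highest. Both trimmings left out members only, which can just lower a ratio.

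The share of barcodes with a Tm4sf20 UMI depends less on such barcodes. It was 31.0% (17.6 to 47.1) in the stricter set, 18.8% (11.7 to 27.8) with 1 or 2 Ccl20 UMIs and 12.1% (10.4 to 14.1) without Ccl20. With every barcode thinned to 100 UMIs the shares were 23.8% (12.1 to 39.5), 7.00% (2.86 to 13.9) and 6.02% (4.77 to 7.49). At that depth the intervals of the stricter set and of the barcodes without Ccl20 did not overlap. Most barcodes rich in Tm4sf20 lacked Ccl20, as did most kept barcodes. This grouping, like the one by Rdh10 below, was chosen after seeing the data. Of 54 barcodes with 3 or more Tm4sf20 UMIs, 8 held a Ccl20 UMI and 6 held 3 or more. The latter share was 11.1% (4.19 to 22.6), against 2.41% (1.62 to 3.44) of 1205 barcodes without Tm4sf20. Median depth was 407 UMIs in the former and 278 in the latter. Thinned to 100 UMIs, a Ccl20 UMI was found in 11.1% (4.19 to 22.6) and 4.73% (3.60 to 6.09), and these intervals overlap. The highest Tm4sf20 count, 19 UMIs, was reached both without Ccl20 and in the stricter set.

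Tm4sf20 is also a neighbour of Ccl20. It lies on chromosome 1 at 82756649 to 82768461, minus strand, 348 kb before Ccl20. The table holds 19 other rows within 1 Mb of Ccl20, of which 10 had a UMI and 5 could be ranked. Beside Tm4sf20, with a ratio of 1.94 for members against none, the ranked neighbours were Mff, a mitochondrial fission factor gene (1.22, 1.03 to 1.44), Irs1, an insulin receptor substrate gene (1.09), Agfg1 (1.06) and Rhbdd1 (1.00). The nearest rows on either side were close to 0. Slc19a3, a thiamine transporter gene 78.3 kb before Ccl20, had 4 UMIs in barcodes without Ccl20 and 0 in members, and Daw1, 40.6 kb after it, had 2 UMIs, both in members.

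Rdh10 was also higher in the stricter set. It encodes a retinol dehydrogenase, which makes retinaldehyde, the precursor of retinoic acid, and lies on chromosome 1 at 16105774 to 16133734, plus strand. Its UMIs ranged from 0 to 14 in the 42 barcodes of the stricter set, with a median of 3, against 0 to 22 and a median of 2 in barcodes without Ccl20, so the ranges overlap. A UMI was found in 40 of 42 barcodes of the stricter set, 95.2% (83.8 to 99.4), against 72.3% (62.5 to 80.7) with 1 or 2 Ccl20 UMIs and 71.6% (69.1 to 74.1) with none. Thinned to 100 UMIs, the shares were 69.0% (52.9 to 82.4), 51.0% (40.8 to 61.1) and 46.1% (43.3 to 48.9). Its level was 11827 CPM in the stricter set and 8099 in barcodes without Ccl20, a ratio of 1.46 (1.25 to 1.70). The 3 highest barcodes held 21.5% of these UMIs. Over all members the ratio was 1.28 (1.16 to 1.42).

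The level of Rdh10 did not follow the amount of Ccl20 among members. It was 10547 CPM (9246 to 11978) with 1 Ccl20 UMI, 7358 (5587 to 9511) with 2, 14074 (11400 to 17187) with 3 to 5 and 9842 (7754 to 12319) with 6 or more. Tm4sf20 stood at 756 (441 to 1211), 1395 (697 to 2497), 2052 (1122 to 3444) and 4921 (3482 to 6754) CPM in the same order of classes. In the last class 1 barcode held 19 of its 38 UMIs, and without that barcode the level was 2584 (1556 to 4035), an interval that overlaps that of the class with 3 to 5. Each of the last 2 classes holds 21 barcodes, and in each of them 20 had an Rdh10 UMI. Read from the other side, 14 of 259 barcodes with 5 or more Rdh10 UMIs belonged to the stricter set, 5.41% (2.99 to 8.90), against 2 of 383 without Rdh10, 0.522% (0.0633 to 1.87). Those groups differ in depth, with medians of 380 and 225 UMIs. Thinned to 100 UMIs, a Ccl20 UMI was found in 6.95% (4.17 to 10.8) of the former and 3.92% (2.21 to 6.38) of the latter, and these intervals overlap.

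**Figure D3:**
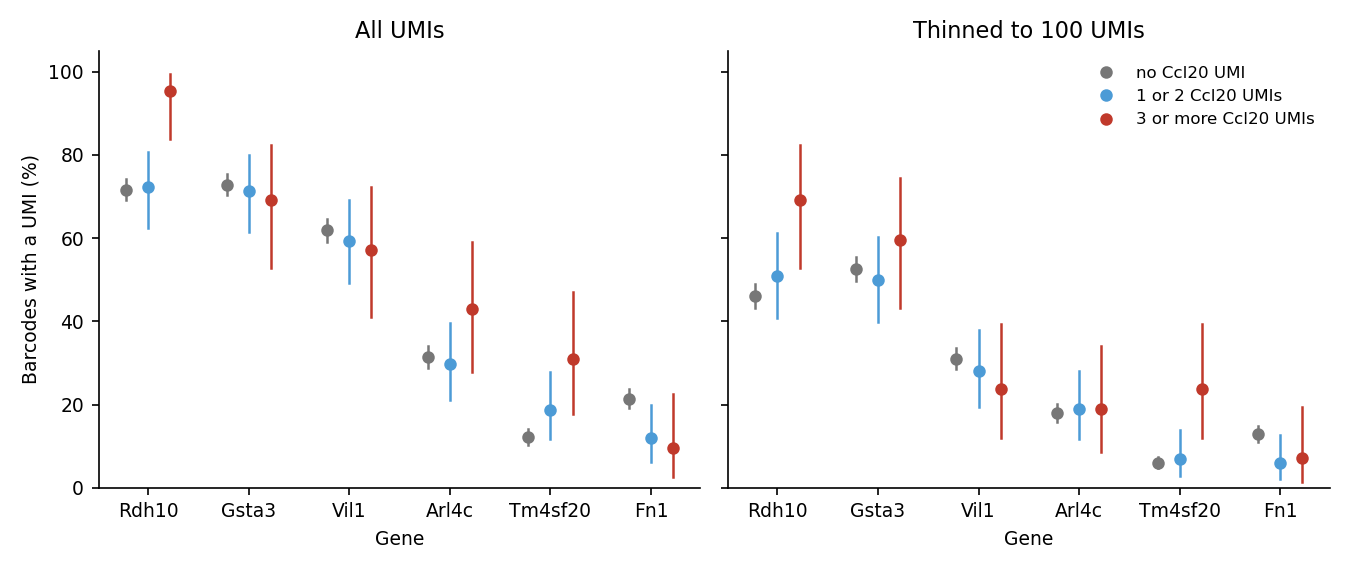
Share of barcodes with a UMI (%, points, with exact 95% intervals as lines) for 6 genes in barcodes with no, 1 or 2, and 3 or more Ccl20 UMIs, with all UMIs (left) and after thinning each barcode to 100 UMIs (right). Rdh10 and Tm4sf20 stand higher in the 42 barcodes with 3 or more Ccl20 UMIs on both sides, with intervals apart from those without Ccl20. Except for Rdh10 with all UMIs, these intervals overlap those of barcodes with 1 or 2 Ccl20 UMIs. Gsta3 and Vil1 overlap between the groups.

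The genes after Tm4sf20 in the stricter set were higher by less than 2-fold. Atg16l1, an autophagy gene, had a ratio of 1.68 (0.966 to 2.74) from 17 UMIs. 1110058L19Rik followed with 1.60 (1.16 to 2.16), with a UMI in 71.4% of barcodes against 43.2% without Ccl20. After thinning these shares were 28.6% (15.7 to 44.6) and 17.5% (15.4 to 19.7), with intervals that overlap. Arl4c, a small GTPase gene, had 1.54 (1.14 to 2.03), but 3 barcodes held 52.8% of its UMIs and without them it was at 0.808. Only the stricter set was trimmed there, which can just lower a ratio. Cops5, the catalytic subunit of the COP9 signalosome, had 1.45 (1.11 to 1.88), and Idh1, the cytosolic isocitrate dehydrogenase, 1.30 (1.09 to 1.53), which was 0.959 after thinning. The others of the 12 highest were Lmbrd1, Wdfy1, the magnesium transporter gene Cnnm4, the vacuolar proton pump subunit Atp6v1h and Dgkd, between 1.35 and 1.46, and each of their intervals includes 1.

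Over all 143 members, the genes next to Tm4sf20 were the tubulin glutamylase gene Ttll4 (1.70), Igfbp5, which encodes an insulin-like growth factor binding protein (1.69, 1.04 to 2.63), and Usp40 (1.60). Kansl1l, the interleukin 18 receptor gene Il18rap, Cops7b, Neurl3, Atp6v1h, Spats2l and Mettl21a lay between 1.35 and 1.48. Of these, Spats2l had 99 UMIs in 63 barcodes and a ratio of 1.36 (1.09 to 1.68).

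Fn1, the fibronectin gene (chromosome 1, 71585520 to 71653200, minus strand), was the ranked gene lowest in the stricter set and among the lowest in all members. It reached 468 CPM (290 to 715) in the 143 members, from 21 UMIs, against 1172 (1067 to 1283) in barcodes without Ccl20, a ratio of 0.399 (0.245 to 0.618). The stricter set had 6 UMIs in 4 barcodes, at 0.352 (0.129 to 0.772) of the level without Ccl20. The ratio was 0.0633 without the 3 of them that held the most. That value adds no support, because only the Ccl20 group was trimmed, which can just lower a ratio. Barcodes with 1 or 2 Ccl20 UMIs were low as well, with 15 UMIs, 494 CPM (277 to 815). A Fn1 UMI was found in 11.2% (6.53 to 17.5) of members and 21.4% (19.2 to 23.8) of the other barcodes, and after thinning in 6.34% (2.94 to 11.7) and 12.9% (11.1 to 14.9). None of the 10 barcodes with the most Ccl20 held a Fn1 or an Alpi UMI, while 9 held Rdh10, 8 Gsta3 and 5 Ptpn18. Among barcodes without Ccl20 the shares were 21.4%, 4.50%, 71.6%, 72.9% and 38.2% in that order. Counts out of 10 are too small to show a difference from these.

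Alpi had the lowest ratio among the 210 ranked genes, but it is found in few barcodes. Members held 7 Alpi UMIs in 5 barcodes and the others 240 UMIs in 56 barcodes, of which the highest held 50. The ratio was 0.256 (0.102 to 0.536). It was 0.0755 without the 3 members that held the most, a trimming of members only that can just lower it. The share of barcodes with a UMI differed less, 3.50% (1.15 to 7.97) against 4.50% (3.42 to 5.80). The other genes at least 2-fold lower in members rested on 4 or 5 UMIs each: Prim2, a primase subunit (0.362), Ankrd44 (0.422), the sterol hydroxylase gene Cyp27a1 (0.426) and Slc23a3 (0.435). Kansl3, Osgepl1, Bag2, Ptprn, Acsl3 and Ptpn18 completed the 12 lowest, between 0.514 and 0.670. Among these, Acsl3, a fatty acid activating enzyme, had 47 UMIs in members and a ratio of 0.657 (0.478 to 0.885), and Ptpn18, a tyrosine phosphatase, had 67 UMIs and 0.670 (0.514 to 0.859). The share of barcodes with a Ptpn18 UMI differed less, 34.3% (26.5 to 42.7) in members against 38.2% (35.4 to 40.9) without Ccl20. The highest Ptpn18 count was 3 UMIs in members and 24 without Ccl20.

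In the stricter set Lactb2, which encodes a mitochondrial ribonuclease, was the second gene at least 2-fold lower, with 5 UMIs and a ratio of 0.424 (0.137 to 0.999). In barcodes with 1 or 2 Ccl20 UMIs it had 37 UMIs and 1219 CPM, above the 811 of barcodes without Ccl20, so the low value was not shared by the 2 sets of members. Trip12 (0.515), Acsl3 (0.518) and Ihh, the hedgehog ligand gene (0.529), followed, and Sgpp2, 2010300C02Rik, Ndufs1, Ptpn18, Pcmtd1, Imp4 and Pecr lay between 0.607 and 0.657. Set against the 101 barcodes with 1 or 2 Ccl20 UMIs, the stricter set had 138 ranked genes, of which 2 were at least 2-fold higher (1.45%), Tm4sf20 (3.88, 2.40 to 6.37) and Wdfy1 (2.09, 1.19 to 3.66), and 3 were at least 2-fold lower (2.17%), or 3.62% in all. The 3 were Myl1 (0.196), Lactb2 (0.282) and Phf3 (0.459). Below the level for ranking, Atg16l1 had 17 UMIs in 11 barcodes of the stricter set and 11 UMIs in 11 barcodes with 1 or 2, a ratio of 3.23 (1.43 to 7.62). Wdfy1 and Atg16l1 were also found less often with 1 or 2 Ccl20 UMIs than without Ccl20. The shares were 20.8% against 33.9% for Wdfy1 and 10.9% against 19.7% for Atg16l1. Set against barcodes without Ccl20, the stricter set had ratios of 1.40 (0.920 to 2.04) for Wdfy1 and 1.68 (0.966 to 2.74) for Atg16l1. The Myl1 difference came from 3 barcodes with 1 or 2 Ccl20 UMIs that held 32 UMIs, 24 of them in 1 barcode.

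**Figure D4:**
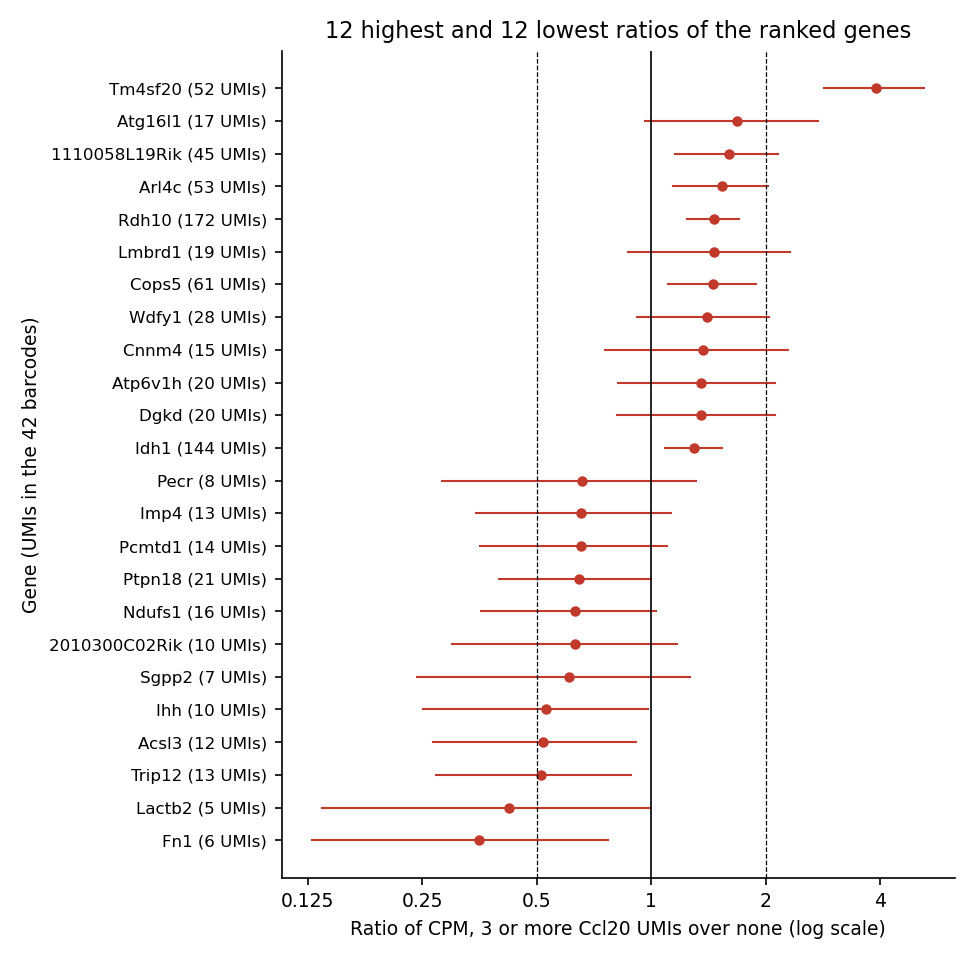
Ratio of CPM (log scale) between barcodes with 3 or more Ccl20 UMIs and barcodes with none for the 12 highest and 12 lowest of 137 ranked genes, with exact 95% intervals as lines and the gene's UMIs in the 42 barcodes in its label. Tm4sf20 and Fn1 stand at the ends, at 3.90 and 0.352, and many of the other intervals cross 1.

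The few ranked genes listed for the pathway upstream of Ccl20 showed no detectable difference with and without it, but their intervals in the stricter set are wide. Of the 30 genes listed for this pathway, 5 beside Ccl20 had a row and 3 could be ranked, with a median ratio of 1.05 in all members and 1.18 in the stricter set, beside 1.00 and 0.986 over all ranked genes. None was past 2-fold. Il1r1, a receptor for interleukin 1, had 10 UMIs in the stricter set and a ratio of 0.845 (0.401 to 1.57). Casp8, the initiator caspase of the death receptor pathway, had 27 UMIs and 1.18 (0.773 to 1.74). Cflar, its inhibitory partner, had 22 UMIs and 1.26 (0.783 to 1.93). The 12 Il17a UMIs of the kept barcodes lay in 1 barcode without Ccl20, and the 2 Il17f UMIs likewise.

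Other immune genes gave few UMIs. Of 7 interleukin 1 and 18 receptor genes, 6 had a row and 3 could be ranked in all members, with a median ratio of 1.06 and none past 2-fold. Il18r1 had 16 UMIs in the stricter set and a ratio of 1.22 (0.687 to 2.00), and Il18rap had 6 UMIs. Of 18 other chemokine and cytokine genes, Cxcr1 and Cxcr2 had a row, with 0 and 7 UMIs.

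Except for Myl1, the summed markers of other cells were low or no higher in members. Of 11 leukocyte genes 8 had a row, at 926 CPM (833 to 1026) in sum without Ccl20, 922 (613 to 1333) with 1 or 2 and 688 (330 to 1265) with 3 or more Ccl20 UMIs. The T cell genes Cd28, Ctla4 and Icos, with 3, 13 and 4 UMIs in other barcodes, and Stat4 and Slc11a1 were at 0 in members. The 2 that could be ranked in all members were Il18rap (14 UMIs, 1.46, 0.768 to 2.60) and Ikzf2, a lymphocyte transcription factor gene (22 UMIs, 0.971, 0.595 to 1.51), with a median ratio of 1.22. Inpp5d, best known from blood cells, had 2 UMIs in members. Of the stromal genes, Col3a1, Col5a2 and Des had 1 UMI each among the kept barcodes and 0 in members. The muscle gene Myl1, below the level for ranking, had 35 UMIs in 4 members and 18 UMIs in 10 other barcodes. Of the 35 UMIs, 34 lay in 3 members, and 1 of these held 24. The part of these cells in the Ccl20 results was not tested.

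Among the epithelial lists, each had at most 3 measured markers besides the 5 replication and mitosis genes. The 3 enterocyte genes summed to 4519 CPM (4311 to 4733) without Ccl20 and 3675 (3136 to 4280) in members, with 7 Alpi UMIs in members as given above. Vil1, the brush border villin gene, stood at 3902 CPM without Ccl20 and 3497 in members, a ratio of 0.896 (0.755 to 1.06). It had 55 UMIs in the stricter set and a ratio of 0.969 (0.727 to 1.27) there. Slc9a4, a sodium and proton exchanger of parietal cells, had 33 UMIs and 0.977 (0.668 to 1.38). The 3 measured endocrine genes summed to 489 CPM (423 to 564) without Ccl20 and 156 (62.7 to 321) in members, but they sit in few barcodes: Resp18 had 74 UMIs in 13 barcodes without Ccl20 and 0 in the 143 members. The 3 tuft cell genes summed to 2480 CPM (2327 to 2640) without Ccl20 and 1626 (1274 to 2044) in members. Nearly all of it was Ptpn18, whose share of barcodes with a UMI differed less, as given above.

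The 5 measured replication and mitosis genes summed to 2026 CPM (1888 to 2172) without Ccl20, 1120 (776 to 1565) with 1 or 2 Ccl20 UMIs and 1925 (1279 to 2783) with 3 or more. In all members the sum was 1381 (1059 to 1770), lower than without Ccl20, while the interval of the stricter set overlapped that of barcodes without it. Of the 3 that could be ranked in all members, Prim2 was at 0.362 (0.0967 to 0.958) from 4 UMIs, Mcm3, a subunit of the replication helicase, at 0.764 (0.4996 to 1.12) and Hjurp, a centromere chaperone gene, at 0.781 (0.497 to 1.18). Sgol2, a protector of sister chromatid cohesion, had 1 UMI in members and 52 in the others. The chaperonin genes Hspd1 and Hspe1 and the nucleolar genes Ncl and Nop58 had ratios between 0.877 and 1.09. Gsta3, a glutathione transferase gene, was at 0.942 (0.863 to 1.03) in members and 1.15 (1.01 to 1.32) in the stricter set, and the latter was 0.867 without its 3 highest barcodes. Trimming the stricter set only, as done here, can just lower a ratio. Ptma was at 0.960 (0.929 to 0.991).

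Ccl20 was also read in barcodes chosen by other genes. A Ccl20 UMI was found in 1 of 43 barcodes with a Sgol2 UMI, 2.33% (0.0589 to 12.3), at a median of 460 UMIs, and in 10.6% (8.97 to 12.3) of the 1345 without, at a median of 282. It was found in 2 of 50 barcodes with 3 or more Fn1 UMIs, 4.00% (0.488 to 13.7), in 4 of 64 with 3 or more Ptpn18 UMIs, 6.25% (1.73 to 15.2), and in 2 of 28 with Inpp5d, 7.14% (0.877 to 23.5). None of 12 barcodes with 3 or more UMIs of the endocrine granule gene Ptprn held it, which allows a share of up to 25%. Barcodes with 3 or more Gsta3 UMIs, at 10.8% (8.45 to 13.4) of 632, did not differ detectably from those without Gsta3, at 11.1% (8.08 to 14.6) of 380.

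RNA free in the droplets can give a UMI to a cell that does not express the gene, and none of these groups is known to lack Ccl20. Each of their intervals overlaps that of all barcodes, so the 74 barcodes with 1 Ccl20 UMI cannot be told apart from background by this measure. Barcodes with 3 or more Ccl20 UMIs were found once each among the 64 rich in Ptpn18 and the 50 rich in Fn1, and 0 times among the 43 with Sgol2, which allows up to 6.98%, and the 28 with Inpp5d.

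**Figure D5:**
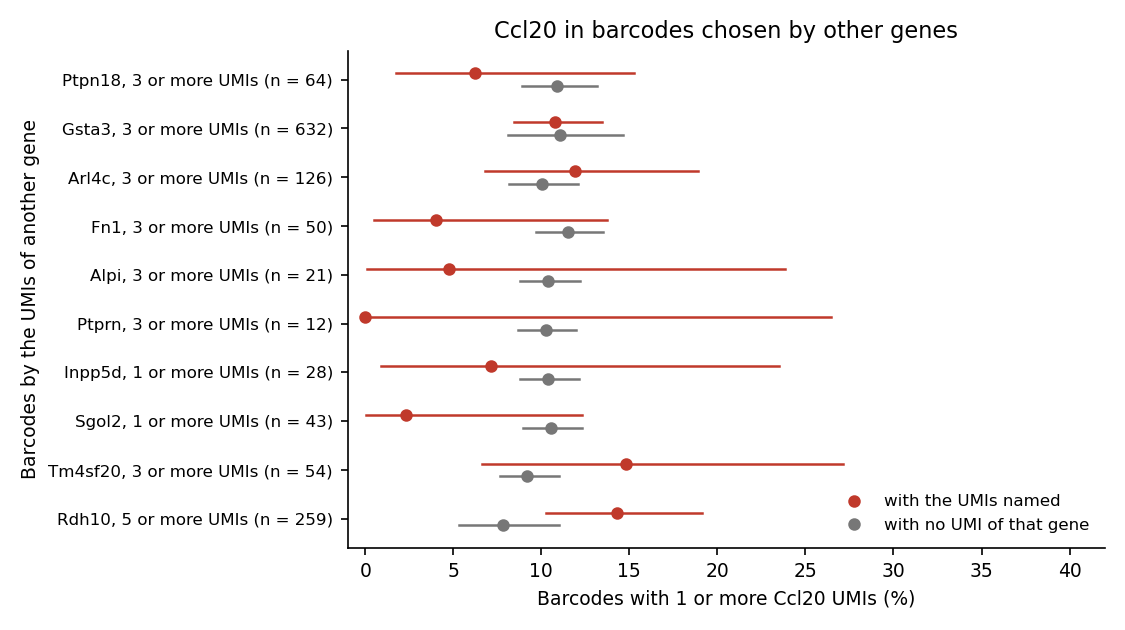
Share of barcodes with 1 or more Ccl20 UMIs (%, points, with exact 95% intervals as lines) in barcodes that hold the stated UMIs of another gene and in barcodes with none of it; n is the number of barcodes with the stated UMIs. The shares run from 0 of 12 for Ptprn to 14.8% for Tm4sf20, and for every gene shown the 2 intervals overlap.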

How the data were processed

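Single-cell RNA of sorted stomach gland cells was measured on the 10x platform, per the labels' protocols. A single count table was deposited by the authors, 1 row per gene and 1 column for each of 1460 barcodes. Its whole numbers were read as UMIs. Cell Ranger, Seurat 2.3.0 and mm10 are named in the submitters' processing notes, with no role or order; no source used here gives the filters or annotation. All 1460 barcodes differ, and none names a sample. The last of 780 rows holds 928 values, all 0, and was left out. The number of per-sample value columns left unused was 0.

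Barcodes with 100 or more UMIs were kept (1388, with 439743 of 444786 UMIs). Their totals span 100 to 1082 UMIs with a median of 286; they are sums over part of chromosome 1, not library depth, and 49.7% of them belong to Rpl37a, Rpl7, Rpl31 and Ptma. No doublet caller was run; leaving out the deepest barcodes was tried instead. Levels are summed UMIs over summed totals without Ccl20, in CPM, with exact Poisson intervals; ratios have exact conditional binomial intervals and shares exact Clopper-Pearson ones, at 95%. For a count of 0, the limit uses 3 counts. Thinning drew 100 UMIs per barcode without replacement; for genes other than Ccl20 it left out 1 member.

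The members and gene lists were chosen with earlier results of these data known. Named genes are all listed genes with a row, the 12 highest and 12 lowest ratios of each comparison with barcodes without Ccl20, rows within 1 Mb of Ccl20, and lower-level genes with a UMI in 5 or more members and a ratio of 3 or more. That last rule named no gene in those comparisons and Atg16l1 within members. A gene that the rule names, and the list it belongs to, are not reported here. Wdfy1 and Phf3, in the comparison within members, were chosen after their values were seen. Python 3.11.15, numpy 2.4.6 and scipy 1.17.1 were used, and the comparison was tested on simulated data. Positions come from GENCODE vM21 on GRCm38, the assembly that mm10 names, and the promoter from the RefSeq table (GRCm38.p6), which matched Ccl20; Tm4sf20 was searched for as well.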

Additional observations from a re-analysis of the deposited data

How the results depend on the processing

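Cells come from 1 pooled sample, so no value has a replicate check. No paired analysis was possible because barcodes carry no sample number. The 92 ratios of ranked named genes were recomputed under each alternative, 780 values in all. Of these, 738 stayed within the interval of the reported ratio and 42 left it. No ratio past 2-fold turned, a check that does not cover smaller ratios. Among the 12 highest of the stricter set, Arl4c, Atg16l1, Atp6v1h, Cnnm4 and Idh1 fell below 1 under some alternative. Their lowest values lay between 0.695 (Cnnm4) and 0.959 (Idh1), while the others of the 12 stayed above 1. Leaving out 3 barcodes from the Ccl20 group only can just lower a ratio. The share of barcodes with Ccl20 moved when each was thinned to 100 UMIs, to 5.62% for 1 or more UMIs and 1.30% for 3 or more. Over the alternatives Fn1 in members lay between 0.254 and 0.425, and Rdh10 between 1.19 and 1.44. In the stricter set Rdh10 ranged from 1.22 to 1.70, Fn1 from 0.0633 to 0.449 and Tm4sf20 from 1.63 to 5.36. The low ends for Fn1 and Tm4sf20 there come from leaving out 3 barcodes of the stricter set only.

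Counts of genes past the fold depended on the rule. For members against none, 6 genes became 14 of 240 (2 higher, 12 lower) with 5 expected UMIs, 1 of 139 with 30, and 15 at 1.5-fold (4 higher, 11 lower). For the stricter set, 3 became 7 of 183 with 5 expected UMIs, 0 of 61 with 30, 16 at 1.5-fold, 6 with each barcode weighted equally, 9 at the same mix of depth and 1 of 53 after thinning, where Tm4sf20, at 4.75, had too few UMIs to be ranked. With 6 or more Ccl20 UMIs, an alternative chosen after seeing the data, 1 of 88 was past 2-fold; the cause of these shifts was not tested. The 14543 UMIs of the stricter set other than Ccl20 limit what could be ranked there.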
